A study of Homo sapiens with 8 samples.

Results

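The transcripts of 8 ectoenzyme genes were followed through MCF10A and DCIS.COM cells with and without forced expression of the lncRNA *MALINC1*. The genes were *ANPEP*, *FAP*, *DPP4*, *MME*, *ERAP1*, *ERAP2*, *LNPEP* and *NT5E*, looked up by symbol, and 7 of them had a row among the 13842 genes of the expression table. *DPP4* was not analysed here. The list was selected on measured values of these same libraries. Which comparison was used is not recorded. It was assumed to be the changes with *MALINC1*, which are therefore given as a description and without a test. The contrast between both lines carrying the empty vector shares the control libraries and may also have guided the choice. For these genes it is therefore given as a description too. All 7 genes passed the minimum of 0.5 CPM (the deposited library-scaled read count, with the prior count taken off) in at least 2 libraries, for *ANPEP* through the other 3 groups, since its pLOC-*MALINC1* libraries of DCIS.COM were near 0.

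MCF10A is an immortalized line of normal human breast epithelium, and DCIS.COM is a line of the same lineage that models ductal carcinoma in situ. Each was stably transduced with the lentiviral vector pLOC, either empty or carrying *MALINC1*, and all 4 groups were selected with blasticidin, so the controls share vector and selection. Each group had 2 libraries, 8 in all, made from the RNA of subconfluent plates. MCF10A was grown with horse serum, epidermal growth factor, hydrocortisone, insulin and cholera toxin, whereas DCIS.COM received horse serum as its one supplement, so line and medium cannot be told apart. The labels do not say whether the libraries of a group came from separate cultures, and p-values measure only the spread between these libraries, which may be technical.

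Ectoenzymes are membrane proteins whose catalytic site faces the outside of the cell, where they trim peptides or nucleotides before these reach a receptor. *ANPEP* (CD13) removes neutral residues from the amino end of peptides, and *FAP* and *DPP4* (CD26) cut after proline. *MME* (neprilysin, CD10) cleaves small signaling peptides internally and is a classical stain for myoepithelial cells of the breast, and *FAP* is best known from activated fibroblasts. *NT5E* (CD73) turns extracellular AMP into adenosine. *LNPEP* (oxytocinase) cycles between storage vesicles, endosomes and the surface. *ERAP1* and *ERAP2* are aminopeptidases of the same family as *ANPEP*, but they are known to trim class I peptides inside the endoplasmic reticulum, so the surface label fits them least. RNA levels say nothing about the location or activity of any of these proteins.

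The genes lie at 5 places in the genome (GRCh37). *ANPEP* is on the minus strand of chromosome 15, from 90328126 to 90358633, with 10 annotated transcripts and 5046 nt of exon. *FAP* is on the minus strand of chromosome 2, from 163027194 to 163101661, and its close relative *DPP4* starts 96.29 kb away on the same strand. *MME* is on the plus strand of chromosome 3, from 154741913 to 154901493, and *NT5E* on the plus strand of chromosome 6, from 86159302 to 86205509. *ERAP1*, *ERAP2* and *LNPEP* are neighbours on chromosome 5. *ERAP1* runs on the minus strand from 96096514 to 96143803, *ERAP2* on the plus strand from 96211690 to 96255407, and *LNPEP* on the plus strand from 96271098 to 96373217. Only 15.691 kb separates *ERAP2* from *LNPEP*. The strand setting of the read counting is not given in the sources used here, so reads from exons shared with a gene on the other strand cannot be assigned with certainty. Such overlap covers 9.16% of the exonic length of *FAP* (a lncRNA), 3.76% of *ERAP1* for *CAST* with 3.22% and 3.17% for each of a pair of lncRNAs, 2.17% of *MME* (*MME-AS1*) and 2.02% of *LNPEP* (a lncRNA).

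Promoter sequences of RefSeq (GRCh38.p14), from 250 bases before to 50 bases after an annotated start, were matched for 7 of the 8 genes, with 14 windows in all and none for *FAP*. Those of *ANPEP* are shown because this gene had the widest range of levels, and those of *MME* and *NT5E* because the former was lower and the latter higher with *MALINC1* in MCF10A. The *ANPEP* windows are both on the minus strand of chromosome 15 and lie 8224 bases apart. As background, the distal start of *ANPEP* is known for its use in myeloid cells and fibroblasts and the proximal one for its use in epithelial cells; counts per gene do not separate them. Capitals mark TATAA, the one of 5 searched motifs that occurred in these 4 windows.
*ANPEP* distal, chr15:89814803-89815102, minus strand: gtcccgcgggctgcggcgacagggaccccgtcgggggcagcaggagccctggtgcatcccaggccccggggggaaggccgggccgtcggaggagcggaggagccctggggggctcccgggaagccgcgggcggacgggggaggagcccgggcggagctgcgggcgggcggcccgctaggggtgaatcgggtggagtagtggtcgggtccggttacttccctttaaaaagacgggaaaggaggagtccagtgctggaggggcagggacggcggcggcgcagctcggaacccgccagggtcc
*ANPEP* proximal, chr15:89806579-89806878, minus strand: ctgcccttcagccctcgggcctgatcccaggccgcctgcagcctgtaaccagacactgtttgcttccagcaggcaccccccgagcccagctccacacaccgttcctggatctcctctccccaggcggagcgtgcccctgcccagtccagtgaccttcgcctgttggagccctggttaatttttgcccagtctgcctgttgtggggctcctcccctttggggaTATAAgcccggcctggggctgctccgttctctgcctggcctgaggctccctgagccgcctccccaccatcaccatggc
*MME* first start, chr3:155079422-155079721, plus strand: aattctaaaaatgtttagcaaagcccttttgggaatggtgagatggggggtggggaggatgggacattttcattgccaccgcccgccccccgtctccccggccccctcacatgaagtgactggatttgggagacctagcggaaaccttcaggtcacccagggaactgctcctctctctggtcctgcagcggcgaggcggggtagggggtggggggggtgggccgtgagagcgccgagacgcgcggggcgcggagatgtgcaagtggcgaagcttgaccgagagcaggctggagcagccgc
*NT5E*, chr6:85449833-85450132, plus strand: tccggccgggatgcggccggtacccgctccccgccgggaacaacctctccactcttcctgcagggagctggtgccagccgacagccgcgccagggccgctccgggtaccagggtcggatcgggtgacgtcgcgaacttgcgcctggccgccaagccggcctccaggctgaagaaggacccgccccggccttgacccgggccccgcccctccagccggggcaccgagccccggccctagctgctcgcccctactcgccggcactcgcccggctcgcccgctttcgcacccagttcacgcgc

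The distal *ANPEP* window had a GC content of 75% and 32 CpG, and the proximal one 65.3% and 10 CpG, with TATAA beginning 28 bases before the start. The *MME* window shown had 63.3% GC and 19 CpG, and that of *NT5E* 75% and 37 CpG. The windows of genes in the table had medians of 64.5% GC and 25 CpG. On both strands, the AP-1 motif TGACTCA or TGAGTCA was in 0 of the 14 windows and in 4.95% of all 35116 windows. The CRE motif TGACGTCA (1.85% of all windows), the octamer motif ATGCAAAT or ATTTGCAT (1.77%) and the ATF4 composite motif TGATGCAA or TTGCATCA (0.866%) were also in 0 of the 14. TATAA or TTATA was in 20.4% of all windows and in windows of *ANPEP* and *LNPEP*. Among windows of genes in the table the shares were 3.76% for AP-1, 2.77% for CRE and 1.41% for the octamer. They were 0.541% for the ATF4 composite motif and 12.5% for TATAA or TTATA. A missing match says only that these letters are not in this window.

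Reads on genes numbered 20604377 to 37550457 per library, and 1 read was worth 0.0279 to 0.0477 CPM. *MALINC1* itself stood at 1.0 to 1.51 CPM with pLOC-empty and at 11.7 to 24.5 CPM with pLOC-*MALINC1*. The signal recognition particle RNAs *RN7SL1* and *RN7SL2* took 8.22% to 15.7% of the reads. The DCIS.COM pLOC-*MALINC1* libraries differed from each other more than other replicates did, with a chi-square per degree of freedom of 20.4 against 3.27 to 6.27. This value includes *RN7SL1* and *RN7SL2*, which took 11.5% and 8.22% of the reads in these 2 libraries. It therefore does not show how far the other genes differed. All 11 epithelial markers had a row, with a summed level of 6024 CPM or more in every library, whereas 3 of 11 fibroblast markers and 3 of 8 leukocyte and endothelial markers had one. In these bulk samples, fewer cells with a transcript and less of it per cell cannot be told apart.

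*ANPEP* was the most variable of the 7 transcripts. In MCF10A it stood at 723 and 721 CPM with pLOC-empty (722 ± 1.37, SD, n = 2) and at 569 and 554 CPM with pLOC-*MALINC1* (562 ± 11.02, SD, n = 2). In DCIS.COM it stood at 15.6 and 16.4 CPM with pLOC-empty (16.0 ± 0.563, SD, n = 2), whereas the pLOC-*MALINC1* libraries held 1 and 2 reads, or 0.0291 and 0.0591 CPM. No group overlapped another. With 2 libraries a group this is common, as 76.5% of all genes in MCF10A and 73.0% in DCIS.COM did not overlap between pLOC-empty and pLOC-*MALINC1*. The DCIS.COM pLOC-*MALINC1* group was at the floor, set at 3 reads per library. The fitted log2 difference with *MALINC1* in MCF10A was -0.36 (SE 0.093). In DCIS.COM the fold change is given from the reads. Scaled to library size, 677 against 3 reads made a 363-fold lower level with pLOC-*MALINC1*, with an exact 95% interval of 124 to 1764 that covers counting error only, so the limit nearest to no change is 124-fold. Between the lines, both with pLOC-*MALINC1*, 35095 against 3 reads gave a ratio of 12786, with an interval of 4375 to 62004. As *ANPEP* is also abundant in myeloid cells and some endothelium, the leukocyte and endothelial markers are set beside it. Those with a row, *CD14*, *CD68* and *PECAM1*, summed to 15.0 to 15.3 CPM and 13.7 to 14.4 CPM in MCF10A with pLOC-empty and pLOC-*MALINC1*, and to 10.3 to 11.3 CPM and 8.07 to 8.21 CPM in DCIS.COM. Of these, *PECAM1* fell from 281 to 9 reads in DCIS.COM with *MALINC1* (log2 difference -5.07, SE 0.25, adjusted p = 1.13e-08), whereas *CD68* went from 3.56 to 7.0 CPM (0.96, SE 0.10, adjusted p = 8.21e-06) and *CD14* from 0.590 to 1.01 CPM (0.71, SE 0.18, adjusted p = 0.00571), both under 2-fold and in the opposite direction. The part of these cells in the *ANPEP* result was not tested.

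**Figure D1:**
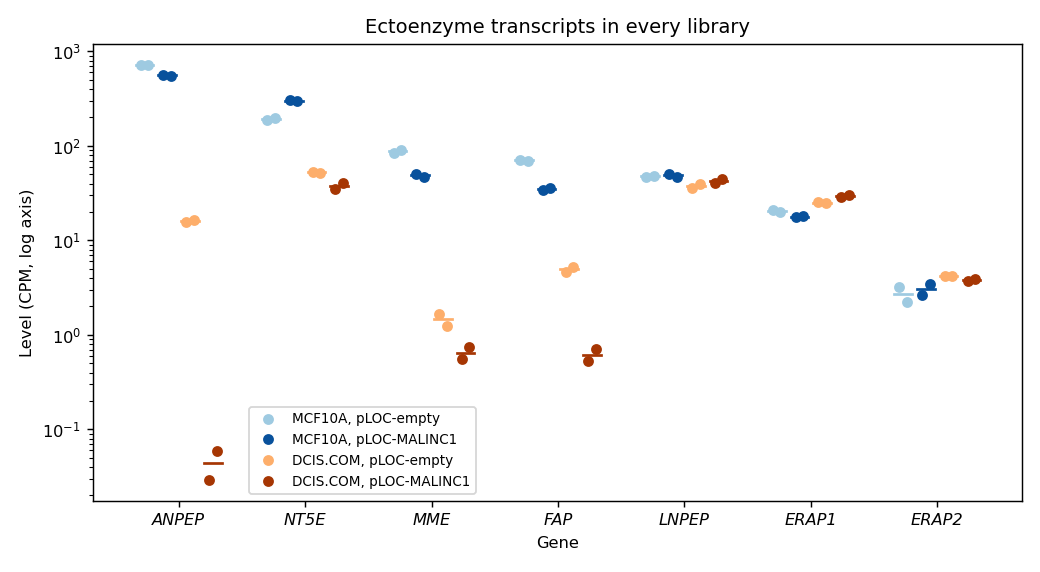
Level of each ectoenzyme transcript (CPM on a log axis) in each of the 8 libraries, as points, with group means of 2 libraries as bars. *ANPEP* spans 723 CPM in MCF10A pLOC-empty to 0.0291 CPM in DCIS.COM pLOC-*MALINC1*, whereas *LNPEP* stays between 35.6 and 50.8 CPM.

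*FAP* was lower with *MALINC1* in both lines. It stood at 71.0 and 69.4 CPM in MCF10A with pLOC-empty (70.2 ± 1.11, SD, n = 2) and at 33.9 and 36.0 CPM with pLOC-*MALINC1* (35.0 ± 1.49, SD, n = 2). In DCIS.COM the levels were 4.62 and 5.25 CPM (4.93 ± 0.448, SD, n = 2) and 0.524 and 0.709 CPM (0.617 ± 0.131, SD, n = 2), the latter from 18 and 24 reads. The groups did not overlap in either line. The log2 difference was -1.0 (SE 0.12) in MCF10A, at the edge of the 2-fold threshold, and -2.87 (SE 0.12) in DCIS.COM. The first was -0.99 without the first MCF10A pLOC-empty library and -0.96 without the first MCF10A pLOC-*MALINC1* library, both just under 2-fold. In DCIS.COM the ratio of reads was 8.00, with an exact interval of 5.72 to 11.4. Fibroblast markers are set beside *FAP* because it marks activated fibroblasts. Those with a row, *COL1A1*, *ACTA2* and *VIM*, summed to 85.2 to 88.3 CPM in MCF10A with pLOC-empty and 43.7 to 46.8 CPM with pLOC-*MALINC1*, and to 580 to 597 CPM and 395 to 408 CPM in DCIS.COM. Most of each sum was *VIM*, at 65.3 and 34.1 CPM in MCF10A (log2 difference -0.93, adjusted p = 1.20e-08). In DCIS.COM *VIM* stood at 580 and 396 CPM (-0.55, adjusted p = 1.40e-06), and both differences were under 2-fold. With pLOC-empty *VIM* was 8.88-fold higher in DCIS.COM than in MCF10A (limma adjusted p = 1.85e-14), whereas *FAP* was lower there. In the same contrast *COL1A1* was 7.66-fold lower in DCIS.COM, as *FAP* was (15.5 and 1.96 CPM, limma adjusted p = 2.83e-10). *ACTA2* stood at 6.03 CPM in MCF10A and 6.16 CPM in DCIS.COM (limma adjusted p = 0.834). *COL1A1* fell in MCF10A with *MALINC1* (log2 difference -1.14, SE 0.13, adjusted p = 1.31e-05) and stood at 1.96 CPM and 1.55 CPM in DCIS.COM. The part of such cells in the *FAP* result was not tested.

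*MME* was also lower with *MALINC1* in both lines, from very different starting levels. MCF10A had 85.1 and 90.2 CPM with pLOC-empty (87.7 ± 3.61, SD, n = 2) and 50.7 and 47.4 CPM with pLOC-*MALINC1* (49.1 ± 2.35, SD, n = 2). DCIS.COM had 1.68 and 1.24 CPM (1.46 ± 0.310, SD, n = 2) and 0.553 and 0.739 CPM (0.646 ± 0.131, SD, n = 2), from 62 and 44 reads in all. The groups did not overlap, but the DCIS.COM values rest on 19 to 36 reads per library. The log2 difference was -0.84 (SE 0.15) in MCF10A and -1.09 (SE 0.15) in DCIS.COM, where the ratio of reads was 2.27 with an exact interval of 1.52 to 3.41. That of DCIS.COM was -0.88 without its first pLOC-empty library and -0.90 without its first pLOC-*MALINC1* library, again under 2-fold. Basal and myoepithelial genes went both ways beside it. *TP63*, a basal transcription factor, rose in MCF10A with *MALINC1* from 4.92 to 40.9 CPM (log2 difference 3.04, SE 0.065, adjusted p = 1.08e-11), and the basal keratin *KRT14* stood at 1452 and 2922 CPM, a 2.01-fold difference at the edge of the threshold (adjusted p = 1.19e-09). In DCIS.COM *KRT14* was lower, at 33.0 and 21.9 CPM (-0.59, adjusted p = 1.45e-07), and *TP63* stood at 56.6 and 49.6 CPM (-0.19, adjusted p = 0.0291). The basal keratin *KRT5* was higher there, at 1069 and 1388 CPM (0.38, adjusted p = 1.19e-05), and also in MCF10A (0.51, adjusted p = 7.88e-07). *KRT17* was higher in MCF10A (0.32, adjusted p = 5.66e-05) and lower in DCIS.COM (-0.27, adjusted p = 0.000265). These keratin differences in DCIS.COM were under 2-fold, as were those of *KRT5* and *KRT17* in MCF10A. The contractile gene *ACTA2* was lower with *MALINC1* in both lines, with log2 differences of -0.54 and -0.56 (adjusted p = 0.00387 and 0.00377), under 2-fold. These genes were named after their values were seen, and their part in the *MME* result was not tested.

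*NT5E* was higher with *MALINC1* in MCF10A and lower in DCIS.COM. In MCF10A it stood at 186 and 198 CPM with pLOC-empty (192 ± 8.17, SD, n = 2) and at 305 and 299.6 CPM with pLOC-*MALINC1* (302 ± 3.85, SD, n = 2), a log2 difference of 0.65 (SE 0.058). In DCIS.COM it stood at 53.2 and 51.6 CPM (52.4 ± 1.11, SD, n = 2) and at 35.2 and 40.8 CPM (38.0 ± 3.94, SD, n = 2), a log2 difference of -0.47 (SE 0.058). The groups did not overlap within either line. Other genes of extracellular adenosine are set beside it, chosen after their values were seen. *ADA*, which breaks adenosine down, stood at 31.6 and 18.9 CPM in MCF10A with pLOC-empty and pLOC-*MALINC1* (log2 difference -0.74, SE 0.088, adjusted p = 2.00e-05), and the adenosine receptor *ADORA2B* at 23.8 and 43.5 CPM (0.87, SE 0.049, adjusted p = 3.54e-08). Both differences passed the adjusted p of 0.01 but were under 2-fold. In DCIS.COM the adjusted p was 0.407 for *ADA* and 0.312 for *ADORA2B*. *ENPP1*, which makes the substrate of *NT5E*, was lower with *MALINC1* in MCF10A (log2 difference -2.08, SE 0.24, limma adjusted p = 1.35e-05). Of the 16 nucleotide and adenosine genes with a row, 2 were called higher and 1 lower in MCF10A, beside 5.50% of all genes called. Their part in the *NT5E* result was not tested.

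The remaining aminopeptidases varied less. *ERAP1* stood at 21.0 and 20.0 CPM in MCF10A with pLOC-empty and at 17.6 and 18.0 CPM with pLOC-*MALINC1*. In DCIS.COM it stood at 25.4 and 25.0 CPM and at 28.9 and 30.1 CPM. Its groups did not overlap, and the log2 differences with *MALINC1* were -0.20 (SE 0.059) in MCF10A and 0.23 (SE 0.059) in DCIS.COM. *ERAP2*, the lowest of the list in MCF10A, stood at 3.24 and 2.21 CPM and at 2.67 and 3.44 CPM there, and at 4.20 and 4.25 CPM and 3.73 and 3.90 CPM in DCIS.COM. Its MCF10A groups overlapped, and the log2 differences of 0.17 (SE 0.19) and -0.14 (SE 0.19) were smaller than their errors. *LNPEP* stood at 47.1 and 48.2 CPM and at 50.8 and 46.6 CPM in MCF10A, and at 35.6 and 39.9 CPM and at 40.7 and 44.5 CPM in DCIS.COM. Its MCF10A groups overlapped too, with log2 differences of 0.029 (SE 0.065) and 0.18 (SE 0.065). In MCF10A the sign depended on single libraries. For *ERAP2* the difference became -0.094 without the second pLOC-empty library and -0.0028 without the second pLOC-*MALINC1* library, and for *LNPEP* -0.033 without the first pLOC-*MALINC1* library.

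A gene counted as called where its adjusted p was below 0.01 and its fold change above 2. By this measure the list had 1 of 7 genes lower with *MALINC1* in MCF10A (*FAP*) and 3 of 7 lower in DCIS.COM (*ANPEP*, *FAP* and *MME*). Over all 13842 genes, 5.50% were called in MCF10A (2.51% lower and 2.99% higher) and 4.53% in DCIS.COM (3.08% lower and 1.44% higher). Nothing is read from these counts, because the list was assumed to have been drawn up on these differences. The median log2 difference of the 7 genes was -0.20 in MCF10A, where that of all genes was 0, and -0.47 in DCIS.COM, where that of all genes was 0.0089. Set side by side, the log2 difference in DCIS.COM minus that in MCF10A was -1.87 (SE 0.18) for *FAP*, -0.25 (SE 0.21) for *MME*, -1.12 (SE 0.082) for *NT5E*, 0.43 (SE 0.083) for *ERAP1*, 0.15 (SE 0.092) for *LNPEP* and -0.32 (SE 0.27) for *ERAP2*.

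**Figure D2:**
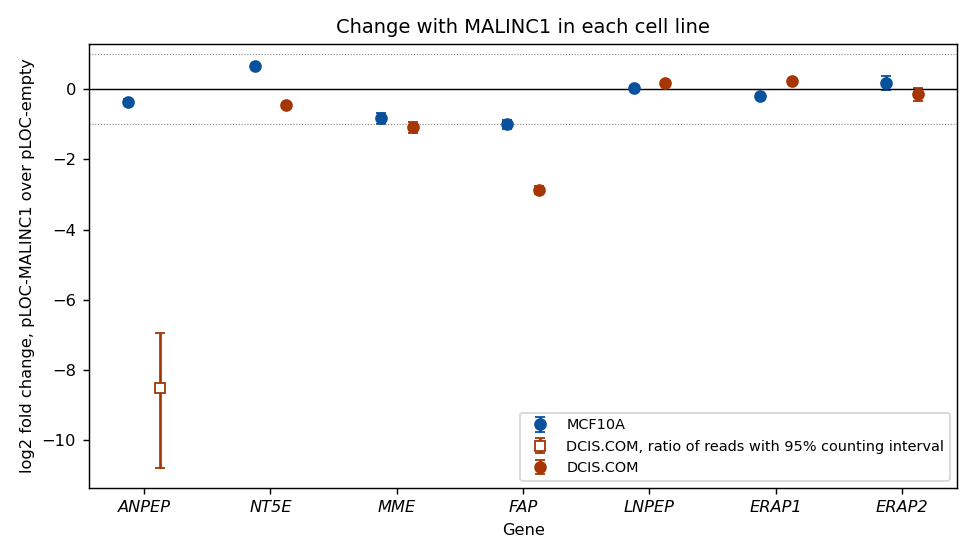
Log2 fold change of each transcript with pLOC-*MALINC1* over pLOC-empty in MCF10A (blue) and DCIS.COM (brown), with standard errors from limma as bars and 2-fold as dotted lines. The open square for *ANPEP* in DCIS.COM is the ratio of 677 to 3 reads, with its 95% counting interval, and *NT5E* is at 0.65 in MCF10A and -0.47 in DCIS.COM.

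Most of the list was lower in DCIS.COM than in MCF10A with the empty vector alone. This contrast of the lines uses the same control libraries as the comparisons above, and it is given without p-values for the list. By limma, *MME* was 57.9-fold lower in DCIS.COM (log2 difference -5.85, SE 0.15) and *ANPEP* 45.0-fold lower (-5.49, SE 0.093). *FAP* was 14.1-fold lower (-3.81, SE 0.12) and *NT5E* 3.66-fold lower (-1.87, SE 0.058). *LNPEP* (-0.34, SE 0.065) was lower, and *ERAP1* (0.30, SE 0.059) and *ERAP2* (0.64, SE 0.19) were higher, all by less than 2-fold. Of the list, 4 of 7 genes were called, all lower, where 28.6% of all genes were called (13.0% lower and 15.6% higher). Whether this contrast guided the choice of the list is not recorded, so nothing is read from the count. The groups of the 7 genes did not overlap between the lines, which was so for 90.1% of all genes. The median log2 difference was -1.87 against 0.0311 over all genes. Epithelial marker levels also differed between the lines, with sums of 19534 to 19693 CPM in MCF10A pLOC-empty and 6024 to 6129 CPM in DCIS.COM pLOC-empty, but the list went both ways, with 4 of 11 markers called higher and 4 lower in DCIS.COM. The sum rests on *KRT5* (6149 and 1069 CPM) and *KRT17* (9985 and 970.4 CPM), which were lower together with *KRT14* and *CDH1*, whereas *EPCAM* (4.50-fold), *KRT8* (2.28-fold), *KRT18* (3.15-fold) and *TP63* (11.4-fold) were higher. Their part in the result was not tested.

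Levels of different genes were compared per kb of exon, with all GENCODE exons of a gene merged. The reads were counted on UCSC knownGene models, so close places in the order depend on the annotation used for length. By CPM alone, *MME* (87.7) stood above *FAP* (70.2) in MCF10A with pLOC-empty. In MCF10A with pLOC-empty the order was *ANPEP* (143 CPM per kb), *NT5E* (42.4), *FAP* (10.1), *MME* (8.89), *LNPEP* (3.18), *ERAP1* (2.58) and *ERAP2* (0.392). With pLOC-*MALINC1* the order was the same, with *FAP* at 5.02 and *MME* at 4.98 CPM per kb overlapping between libraries. In DCIS.COM with pLOC-empty *NT5E* led at 11.6 CPM per kb, *ERAP1* and *ANPEP* overlapped at 3.17 CPM per kb, and *LNPEP* (2.52), *FAP* (0.708), *ERAP2* (0.607) and *MME* (0.148) followed. With pLOC-*MALINC1* the order in DCIS.COM was *NT5E* (8.38 CPM per kb), *ERAP1* (3.71), *LNPEP* (2.85), *ERAP2* (0.549), *FAP* (0.0885), *MME* (0.0655) and *ANPEP* (0.00874). The first of the list in MCF10A was therefore the last in that group, and *FAP* and *MME* differed there by less than the sum of their SDs of 0.0188 and 0.0133 CPM per kb.

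**Figure D3:**
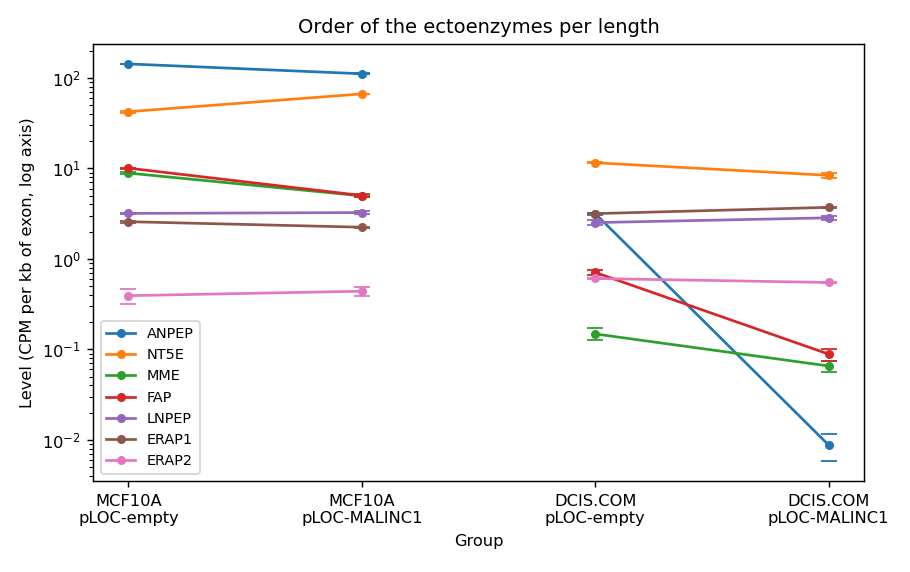
Level per kb of exon (CPM per kb on a log axis) of each transcript in the 4 groups, with means of 2 libraries as points, single libraries as dashes, and lines joining pLOC-empty to pLOC-*MALINC1* within a line. *ANPEP* goes from first place in MCF10A (143 CPM per kb with pLOC-empty) to last in DCIS.COM with pLOC-*MALINC1* (0.00874), and *NT5E* leads both DCIS.COM groups.

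Other genes of the same families and pathways were taken from 8 lists. The lists were drawn up with earlier results of these data known, so tests of their genes are not independent of those results. They held 101 names, of which 71 were in the table. With *MALINC1*, 4 rose and 1 fell in MCF10A, and 1 rose and 1 fell in DCIS.COM, beside 5.50% and 4.53% of all genes called. Their median log2 difference was -0.0032 and -0.019, near that of all genes. None of the 6 tested M1 aminopeptidases, the family of *ANPEP*, *ERAP1*, *ERAP2* and *LNPEP*, was called in either line, nor any of the 7 prolyl peptidases related to *FAP* and *DPP4*, the 3 neprilysin relatives of *MME*, the 15 genes of class I peptide loading or the 5 storage vesicle partners of *LNPEP*. Of these 36 genes, limma gave 26 in MCF10A and 27 in DCIS.COM an unadjusted p under 0.05, and voom called 0 in either line. The calls came from the 16 nucleotide and adenosine genes, the 8 other exopeptidases and the 11 surface endoproteases.

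Among the exopeptidases, *GGT6*, of the gamma-glutamyltransferase family, rose in MCF10A from 0.628 ± 0.136 to 2.53 ± 0.0496 CPM (SD, n = 2, log2 difference 1.91, SE 0.13, limma adjusted p = 1.62e-07) and stood at 35.1 and 41.2 CPM in DCIS.COM. Of the endoproteases, the membrane serine protease *TMPRSS4* rose in MCF10A from 9.84 ± 0.573 to 32.3 ± 0.0354 CPM (1.71, SE 0.12, adjusted p = 1.72e-07). The membrane metalloproteinase *MMP16* rose in DCIS.COM from 8.52 ± 0.107 to 46.5 ± 2.95 CPM (2.44, SE 0.21, adjusted p = 1.90e-06), against 0.579 and 0.726 CPM in MCF10A. These genes went up in the line in which they were called, where *FAP* and *MME* were lower.

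Of the nucleotide and adenosine genes, *P2RY1*, a receptor for ADP, rose in MCF10A from 0.327 ± 0.0247 to 1.88 ± 0.446 CPM (SD, n = 2, log2 difference 2.27, SE 0.21, limma adjusted p = 2.24e-06). The nucleoside transporter *SLC29A2* rose there from 1.48 ± 0.0954 to 3.07 ± 0.275 CPM (1.01, SE 0.12, adjusted p = 2.06e-05), which became 0.95 without the second pLOC-empty library and 0.92 without the first pLOC-*MALINC1* library, under 2-fold. *ENPP1*, which releases AMP from extracellular ATP and so makes the substrate of *NT5E*, fell from 2.83 ± 0.443 to 0.638 ± 0.272 CPM (-2.08, SE 0.24, adjusted p = 1.35e-05). In DCIS.COM *ALPP*, a placental alkaline phosphatase, fell from 0.519 ± 0.0582 to 0.220 ± 0.101 CPM (-1.06, SE 0.25, adjusted p = 0.00426). It rests on 10 and 12 reads against 10 and 5, shares sequence with near-identical paralogs and is uncertain. The call was lost without the first or second pLOC-empty library (-0.96 and -1.16, adjusted p = 0.0313 and 0.0144) and without the second pLOC-*MALINC1* library (-0.70, adjusted p = 0.0403).

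Between the lines with pLOC-empty, 14 of the 71 related genes were higher and 10 lower in DCIS.COM, beside 15.6% and 13.0% of all genes. The largest changes among those with at least 5 CPM in the higher line were *GGT6* (log2 difference 5.67, SE 0.13, limma adjusted p = 6.58e-13), *SLC29A2* (4.15, SE 0.12, adjusted p = 5.93e-12) and *MMP16* (3.78, SE 0.21, adjusted p = 3.60e-09). Their median was 0.048. The nucleotide and adenosine genes gave 7 of the 14 and 4 of the 10. The 6 M1 aminopeptidases gave 1, *TRHDE*, the thyrotropin-releasing hormone degrading enzyme, which went with *ANPEP* in being lower, at 165 reads in MCF10A and 1 read in DCIS.COM with pLOC-empty (ratio 136, exact interval 24.0 to 5387). The 7 related prolyl peptidases gave 0 by limma and by voom, and 5 of them had an unadjusted p under 0.05. *ECE2*, of the neprilysin family, *HLA-B* of the class I genes and *TBC1D4* of the storage vesicle partners were each the one call of their list and were higher in DCIS.COM.

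The response to *MALINC1* differed between the lines by the same measure for 7 of the 71 related genes, 2 higher and 5 lower in DCIS.COM, beside 9.20% of all genes. *ENPP1* and *MMP16* were the ones with the higher difference.

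**Figure D4:**
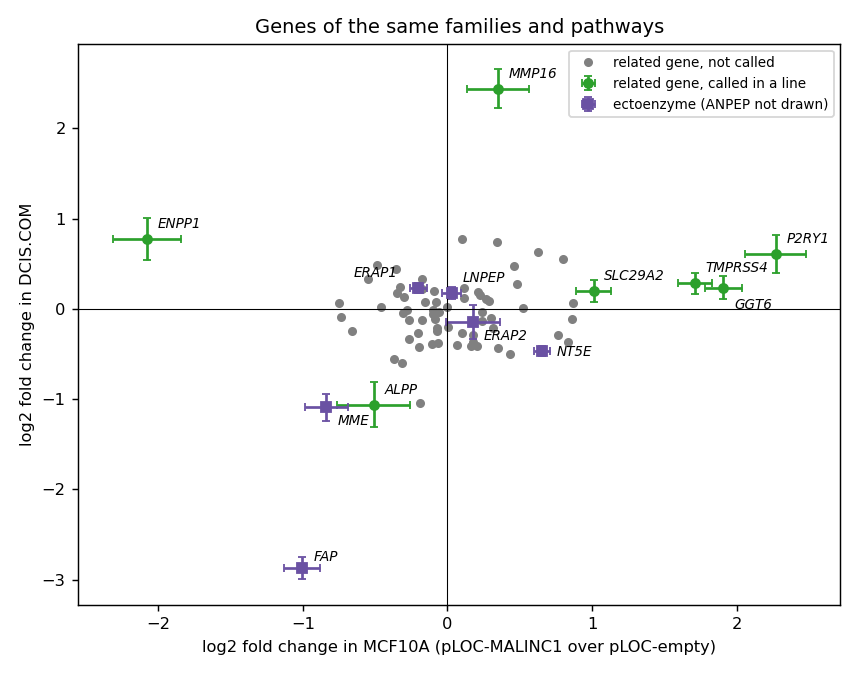
Log2 fold change with *MALINC1* in MCF10A (horizontal) against DCIS.COM (vertical) for the 71 related genes and the ectoenzymes other than *ANPEP*, with standard errors for the called related genes and the ectoenzymes. The called genes lie away from the cluster around 0, with *MMP16* at 2.44 in DCIS.COM, *P2RY1* at 2.27 in MCF10A and *FAP* at the lower left.

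Genes next to the ectoenzymes were looked up in the GRCh37 annotation, to which 13165 genes of the table (95.1%) were matched. Outside the list, 15 tested genes lay within 200 kb of a gene body. With *MALINC1*, 0 of them were called in MCF10A by limma and by voom, where 8 had an unadjusted p under 0.05, and 1 in DCIS.COM. That gene was *MESP1*, a mesoderm transcription factor 33.646 kb from *ANPEP*, which fell (log2 difference -1.37, SE 0.26, adjusted p = 0.000921). *PEX11A*, 94.112 kb from *ANPEP*, differed by -0.89 (SE 0.11, adjusted p = 3.16e-05), under 2-fold, whereas *AP3S2*, the nearest gene at 15.198 kb, differed by -0.18 (SE 0.048, adjusted p = 0.00883). *IFIH1*, an RNA sensor 21.923 kb from *FAP*, differed by -0.74 in DCIS.COM (SE 0.079, adjusted p = 1.08e-05) and by -0.15 in MCF10A (SE 0.079, adjusted p = 0.128). The last 3 were named after their values were seen. Between the lines, 5 of the 15 were called, near the 28.6% of all genes.

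**Figure D5:**
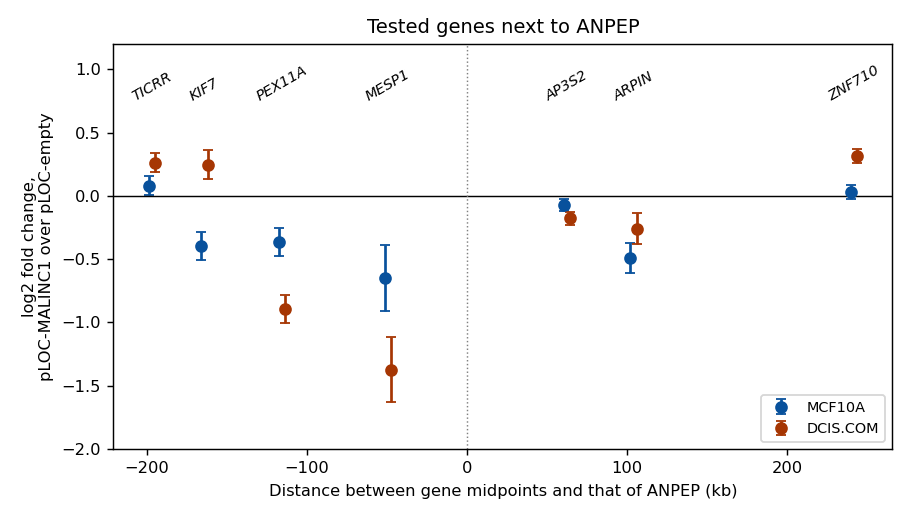
Log2 fold change with pLOC-*MALINC1* of the 7 tested genes around *ANPEP*, by the distance between gene midpoints (kb), in MCF10A (blue) and DCIS.COM (brown) with standard errors from limma. *MESP1* lies at -1.37 in DCIS.COM, and the other genes in that line lie between -0.89 and 0.32.

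The genes whose pattern over the 8 libraries was most like that of *ANPEP* were found by the Pearson correlation of log2 CPM over 11449 genes with at least 5 CPM in 2 libraries. They were *KRT86* (r = 0.999), *FHOD3* (0.9987), *DTX4* (0.9987), *TMEM159* (0.9981) and *DENND2D* (0.9981). *KRT86*, a hair keratin, stood at mean levels of 184 and 157 CPM in MCF10A and 12.3 and 0.293 CPM in DCIS.COM with pLOC-empty and pLOC-*MALINC1*. *FHOD3*, an actin regulator of the formin family, stood at 92.2 and 87.5 CPM and at 10.1 and 0.777 CPM. *TMEM159*, by contrast, spanned only 42.9 to 28.9 CPM, since a correlation does not see the size of a change. For *FAP* the genes were *KIF18A* (0.9984), *HACD2* (0.9982), *SNX7* (0.998), *YPEL5* (0.9977) and *SGO2* (0.9975), with log2 differences of -0.13 to -0.36 in MCF10A and -0.46 to -0.92 in DCIS.COM, all smaller than those of *FAP*. The 8 points fall into 4 groups of replicates from shared libraries, so these are descriptions.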

How the data were processed

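RNA-seq of the MCF10A and DCIS.COM lines with pLOC-empty or pLOC-*MALINC1* gave 8 libraries, 2 in each of 4 groups. According to the methods and the submitters' processing notes, paired-end sequencing (76 nt) of RNA from subconfluent plates was followed by alignment with Rsubread against hg19, and featureCounts assigned the reads to UCSC knownGene models. The authors normalized the counts with edgeR and deposited log2 CPM. Tool versions, the strand setting and the expression filter are not given in the sources used here. Whole reads were recovered from the deposited log2 values with a prior count of 2 (100% whole within 0.05 reads), and CPM were computed from them without the prior, against the effective library size. With 20604377 to 37550457 reads on genes per library, 3 reads or fewer in each library of a group was taken as the floor, and ratios of reads have exact 95% intervals for counting error only.

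The deposited log2 CPM of all 13842 genes entered 1 linear model in limma 3.58.1 (R 4.3.3, trended eBayes, 4 residual and 7.98 prior degrees of freedom), with a mean for each group and Benjamini-Hochberg adjustment over all genes. Calls needed an adjusted p below 0.01 together with a fold change above 2. The steps were tested on simulated data, in which the changed genes lay above 5 CPM and all genes shared 1 fixed dispersion. That test did not cover calls at lower levels or near 2-fold. A minimum of 0.5 CPM in 2 libraries removed 0 genes. The members and the gene lists were chosen with earlier results of these data known. Named genes are all members, related genes called with *MALINC1*, the 3 largest related changes between the lines at 5 CPM or more, the 5 genes most like *ANPEP* and *FAP*, and neighbours within 200 kb called with *MALINC1*. Exceptions are stated. Alternatives changed the pseudocount, filter, scaling, model, threshold and replicate block, or left 1 library out. Coordinates are of GRCh37 with GENCODE annotation, and promoters of RefSeq (GRCh38.p14). Other steps used scipy 1.17.1, pandas 2.3.3, numpy 2.4.6 and matplotlib 3.10.9 under Python 3.11.15.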

Additional observations from a re-analysis of the deposited data

Results flagged for a closer look

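For 7 of the 71 related genes, the test of the difference between the lines in the response to *MALINC1* passed (limma, adjusted over all genes), beside 9.20% of all genes. Values are the log2 difference in DCIS.COM minus that in MCF10A. *ENPP1* differed by 2.85 (adjusted p = 1.96e-05), being lower with *MALINC1* in MCF10A, with 0.77 in DCIS.COM. *MMP16* differed by 2.09 (adjusted p = 0.00012). *GGT6* differed by -1.68 (adjusted p = 1.10e-05), *P2RY1* by -1.66 (adjusted p = 0.000563) and *TMPRSS4* by -1.43 (adjusted p = 1.80e-05), all higher with *MALINC1* in MCF10A and with differences of 0.23, 0.61 and 0.28 in DCIS.COM.

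*MMP14*, a membrane metalloproteinase, differed by -1.19 (adjusted p = 5.25e-09), with 0.83 in MCF10A and -0.36 in DCIS.COM. *TBC1D4*, a regulator of the vesicles that carry *LNPEP*, differed by -1.05 (adjusted p = 4.57e-08), with 0.76 in MCF10A and -0.29 in DCIS.COM. Both moved the way *NT5E* did, under 2-fold in each line.

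*NT5E* and *ERAP1* moved in opposite directions in the lines in every library. The difference was -1.12 for *NT5E* and 0.43 for *ERAP1*. It was not tested, because the genes were assumed to have been selected on these comparisons.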

How the results depend on the processing

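Of 343 values under 10 alternatives, 326 kept their direction and side of the threshold and 17 lost a call. Of 280 values with a library left out, 268 kept both, 9 lost a call and 3 changed sign. Related genes entered these tallies only where the main fit called them, so the tallies cannot show a related gene gaining a call. With a pseudocount of 0.5 or 1 CPM, 0 of the ectoenzymes were called in MCF10A in place of 1, and 1 related gene in DCIS.COM in place of 2, since a pseudocount shrinks changes at low levels. *FAP* then had -0.995 and -0.985 in MCF10A, and *MME* -0.77 and -0.58 in DCIS.COM. *MME* also lost its call when DCIS.COM was fitted alone, as did *ALPP* and, in MCF10A, *ENPP1* (adjusted p = 0.0123). *ALPP* further lost it under quantile normalization and voom, and *SLC29A2* under median-of-ratios scaling (0.98) and both pseudocounts. For the difference between the lines, *P2RY1* lost its call under both pseudocounts (-0.99 and -0.66) and *GGT6* at 1 CPM (-0.89). The scalings moved the median of all genes by less than 0.1.

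With a library left out, the ectoenzymes called numbered 0 to 1 in MCF10A, 2 to 3 in DCIS.COM and 4 between the lines, and related genes 4 to 5, 1 to 3 and 24 to 25, with 7 to 9 for the difference. In MCF10A, *ERAP2* ranged from -0.094 to 0.44, with -0.0028 between, and *LNPEP* from -0.033 to 0.092. A lone library was assumed to vary like the other groups. With a replicate block, 1, 3 and 4 ectoenzymes and 5, 3 and 24 related genes were called. Same-numbered libraries correlated at -0.105 to 0.0825 in their deviations. Such weak correlations cannot show whether they shared a culture or a preparation, since other noise can hide it. Depth limits *ANPEP*, *FAP* and *MME* in DCIS.COM, where pLOC-*MALINC1* left 3, 42 and 44 reads.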
